A study of Rattus norvegicus with 9 samples.

Results

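The genes described here encode the protein complexes of the mitochondrial respiratory chain in rat uterus. They were chosen by the start of their symbol on the array (Ndufa, Ndufb, Ndufc, Ndufs, Ndufv, Uqcr, Cox4 to Cox8, Atp5) or by name (Sdha, Sdhb, Sdhc, Sdhd, Cyc1, Cycs). The rule uses no measured value, but it was set with earlier results of these data known. Of 14218 genes on the array with a probe set of 1 symbol, 87 matched, and 82 of these were among the 10973 genes bright enough to be tested. The 82 comprised 34 subunits of complex I, 4 of complex II, 8 of complex III, 14 of complex IV (Ndufa4 and Ndufa4l2 included) and 15 of complex V. The other 7 match by symbol and are not subunits: the assembly factors Ndufaf3, Ndufaf4, Ndufaf5, Ndufaf7 and Ndufaf8, the supercomplex factor Cox7a2l and the ATP synthase inhibitor Atp5if1.

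Complexes I and II pass electrons from NADH and succinate to ubiquinone, complex III passes them on to cytochrome c, and complex IV passes them to oxygen. Complexes I, III and IV pump protons across the inner membrane, and complex V (ATP synthase) makes ATP from their return. Most subunits are encoded in the nucleus, where the factors NRF1, GABP, YY1 and the oestrogen-related receptors are known to bind many of the promoters. In the uterus the chain supplies ATP to contracting smooth muscle and to secretory epithelium.

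Uterine RNA of female Rattus norvegicus was measured on 9 Affymetrix arrays, 3 per group. Control rats (arrays 41, 42 and 43) were left untreated. Model rats (21, 22 and 23) underwent induced ovulation, with 0.5 U of pregnant mare serum gonadotropin per rat and, 48 h later, the same amount of human chorionic gonadotropin. Treatment rats (31, 32 and 33) had that induction too, with electroacupuncture at 2 points, Guanyuan and Sanyinjiao, in sessions of 15 min on the 7 days before it and during it. Treatment and model therefore share the hormones and differ by electroacupuncture, while control differs from both by the hormones. All 18 rats, 6 per group, were acclimatised alike. The labels seen here give no strain, age, oestrous stage or time of tissue collection, and do not say whether each array held RNA of 1 rat, so p-values measure the spread between arrays, which may be technical.

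Values are log2(intensity + 16) of the deposited intensities, and every difference is on that scale, which understates the change of dim genes. The 9 arrays had median intensities of 23.56 to 24.02. Of the genes listed as a check of uterine identity, Pgr, Hoxa10, Hoxa11, Msx1, Wnt7a and Foxa2 were among the genes tested and Esr1 was not. Over these 6, mean deviations from the 9-array mean were 0.033 to 0.361 log2 units on control arrays. They were -0.087 to 0.322 on model arrays and -0.452 to -0.17 on treatment arrays, so treatment was below control without overlap. Control 43 stood apart from the other untreated arrays: its correlation over genes was 0.945 with control 41 and 0.959 with control 42, against 0.989 between those 2, and its closest array was model 21 (0.985). Its mean deviation over 15 epithelial markers was -0.517 log2 units, where control 41 had 1.36 and control 42 had 0.964, model arrays ran from -0.636 to -0.214 and treatment arrays from -0.506 to 0.05. Over 14 smooth muscle markers, control 41 was at -0.744, control 42 at -0.037 and control 43 at -0.1, against 0.028 to 0.306 in model and -0.05 to 0.252 in treatment. Over 11 stromal markers control arrays ran from -0.585 to 0.481, model arrays from -0.073 to 0.392 and treatment arrays from -0.453 to 0.095, and over 8 endothelial markers control 43 was at 0.555 and treatment 32 at -0.866, with the others between -0.286 and 0.353. Over 7 adipocyte markers model arrays were at 0.261 to 0.374 and all others at -0.387 to -0.065. Over 9 leucocyte markers model 22 was at 0.959 and treatment 32 at -0.607, with the others between -0.41 and 0.354. The 3'/5' signal ratio of Actb, a sign of RNA quality, was lowest in control 41 (5.07) and highest in control 43 (7.84), and that of Gapdh was 1.1 and 1.11 in controls 41 and 42, 1.3 in control 43 and 1.39 in model 21. None of these markers had a value of 0. The part of these differences in the results below was not tested. In bulk tissue, fewer cells of a type and less RNA per cell cannot be told apart. The members' calls and medians against control, and the calls within the gene lists, are given with and without control 43.

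The promoters of the members are shown first because motifs of the factors named above recur in them. RefSeq promoters of GRCr8, 250 bases before to 50 after the start of the gene, were found for 78 members. Letters were searched on both strands: GCGCATGC for NRF1, CCGGAAG for GABP, AAGGTCA for the oestrogen-related receptors and AAGATGGC for YY1. The following stretches of 70 bases, upstream of the start, come from subunits of each complex that are described below and are printed along the strand of the gene, with the matched letters in capitals.

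Ndufa1, complex I, chrX:121293689-121293758, minus strand, a GABP match on the opposite strand: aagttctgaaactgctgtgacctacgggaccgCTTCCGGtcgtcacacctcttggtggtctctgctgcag
Sdhb, complex II, chr5:158547763-158547832, plus strand, an NRF1 match on the opposite strand and a GABP match: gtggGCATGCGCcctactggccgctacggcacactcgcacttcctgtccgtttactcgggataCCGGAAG
Uqcrh, complex III, chr5:134790928-134790997, minus strand, a GABP match on the opposite strand: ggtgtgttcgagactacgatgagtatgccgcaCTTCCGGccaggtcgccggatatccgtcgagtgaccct
Cox8a, complex IV, chr1:213833624-213833693, minus strand, a pair of GABP matches on the opposite strand: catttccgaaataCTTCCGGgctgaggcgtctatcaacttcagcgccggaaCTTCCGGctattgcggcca
Atp5me, complex V, chr14:1464784-1464853, plus strand, overlapping NRF1 matches on both strands: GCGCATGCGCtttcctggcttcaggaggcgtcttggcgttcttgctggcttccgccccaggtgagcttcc
Atp5pf, complex V, chr11:37375162-37375231, minus strand, a YY1 and a GABP match: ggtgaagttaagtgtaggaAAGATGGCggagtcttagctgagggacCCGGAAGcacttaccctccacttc

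The YY1 letters were present in 17 of the 78 promoters (21.8%), against 5.19% of the 10169 promoters of tested genes and 3.17% of all 33469 promoters in the table. The GABP letters were in 22 (28.2%), against 16.8% and 8.75%. The NRF1 letters were in 9 (11.5%), against 4.75% and 2.47%, and the receptor letters in 11 (14.1%), against 3.06% and 4.61%. Among members, the YY1 matches of Atp5me and Atp5pf lay wholly upstream of the start of the gene. All other YY1 matches overlapped the start or lay after it. At least 1 of the 4 motifs was in 41 member promoters (52.6%), against 26.6% of those of tested genes and 17.5% of all. By complex these were 16 of 32 promoters for complex I, 3 of 4 for complex II, 4 of 6 for complex III, 4 of 14 for complex IV and 10 of 14 for complex V. The median GC content was 56% for members, 60.7% for tested genes and 51.7% for all promoters. These are matches of letters, and binding was not measured.

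The members gave bright and even signals. The median of their 9-array means was 9.21, at the 95.3 percentile of the tested genes, and 75 of 82 lay above the median gene. A probe set's brightness also depends on its probes, so this describes signal and not an order of RNA amounts. The gap between the highest and the lowest of the 9 arrays had a median of 0.34 log2 units over the members and 0.51 over all tested genes. It was under 1, or 2-fold, for 81 of 82 members (98.8%) and for 81.8% of all tested genes. The exception was Atp5if1, which encodes the inhibitor that keeps ATP synthase from running in reverse. It read 8.52, 8.20 and 8.98 on control arrays 41, 42 and 43, 9.24, 8.53 and 8.43 on model arrays 21, 22 and 23, and 8.37, 8.34 and 8.51 on treatment arrays 31, 32 and 33. Its spread lay within groups, which overlapped, and model 21 was the highest array.

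**Figure D1:**
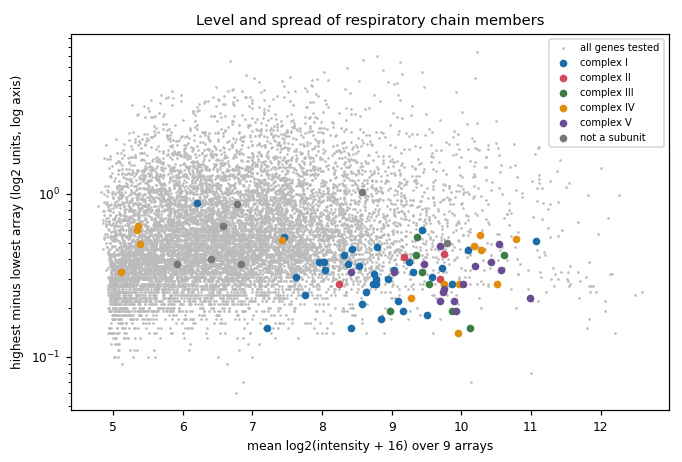
Each point is 1 gene, with its mean log2(intensity + 16) over 9 arrays on the horizontal axis and the gap between its highest and lowest array, in log2 units on a log axis, on the vertical axis. Grey points are the 10973 genes tested and coloured points the 82 members, by complex. Members lie mostly to the right and low, with a median gap of 0.34, and Atp5if1 alone among them is above 1.

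The 5 members that did not pass the filter on dim signals were Cox7a1, Cox8b, Cox7b2, Cox6c-ps1 and Ndufaf1. Cox7a1 and Cox8b encode the heart and skeletal muscle forms of complex IV subunits, and Cox7b2 a form known from testis. Cox7a1 had intensities of 8.11 to 10.4 over the 9 arrays, Cox8b of 5.87 to 12.2 and Cox7b2 of 2.96 to 3.81, all under the 40th percentile of their array. The pseudogene Cox6c-ps1 and the complex I assembly factor Ndufaf1 reached that percentile on 1 array each. A further 9 probe sets were left out because the annotation gives each several symbols. They stand for Cycs (cytochrome c), Cox7a2, Atp5mc1, Atp5mc2, Ndufa10, Ndufs5 and Uqcrb with close copies, and for a second Cox5a probe set, so cytochrome c is not represented. Subunits encoded by mitochondrial DNA do not match the choice and were not analysed here.

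The first comparison, model against control, asks how induced ovulation differed from the untreated uterus. No member was called at an adjusted p under 0.05 in limma (Benjamini-Hochberg over 10973 genes), where 3 genes in all were called (0.0273%). At an unadjusted p under 0.05, 4 members were higher in model and 0 lower, against 6.37% and 6.08% of all genes. Groups did not overlap for 5 members that were higher, against 7.79% of all genes, and for 2 that were lower, against 6.73%. The median log2 difference of the members was 0.023, with 48 of 82 above 0, and the median of all genes was 0.016. Single members ran from -0.22 (Atp5mf) to 0.39 (Ndufb8).

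The second comparison, treatment against control, differs from the first by electroacupuncture in the treated rats, and both use the same control arrays. No member was called here either, among 56 genes in all (0.51%). At an unadjusted p under 0.05, 6 members were higher and 1 lower, against 6.54% and 10.8% of all genes. Non-overlapping groups were found for 10 higher members, against 9.4%, and 5 lower ones, against 13.9%. The members' median log2 difference was 0.025, with 50 of 82 above 0, where that of all genes was -0.037. Their range was -0.23 (Atp5mf) to 0.55 (Ndufb8).

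The third comparison, treatment against model, is the one in which electroacupuncture is the labelled difference. Calls were 0 among members and 0 among all genes (0%) in limma. At an unadjusted p under 0.05 there were 0 higher members, against 4.57% of all genes, and 1 lower, against 10.1%. Groups did not overlap for 5 higher and 8 lower members, against 8.1% and 19.9%. The median log2 difference was -0.003 for members, with 39 of 82 above 0, and -0.054 for all genes. The lowest value was -0.32 (Atp5if1) and the highest 0.20 (Uqcrc2). The dimmer Atp5if1 probe sets, not used in the fit, gave -0.01 and 0.05.

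The members' differences were small in all 3 comparisons. In model against control, 76 of 82 members (92.7%) differed by under 0.25 log2 units, where 74.4% of all genes did. For treatment, this held for 79 members (96.3%) and 74% of all genes against control, and for 79 members (96.3%) and 75.4% against model. Most assembly factors and most regulators of mitochondrial biogenesis, listed below, also differed by under 0.25 log2 units in model against control. No member differed by over 1 log2 unit, while 206, 258 and 108 of all genes did in the 3 comparisons. The 95% interval of each of the 82 members lay within 2-fold in either direction in all 3 comparisons, where 88.6%, 88.5% and 90% of all genes had such an interval. It lay within 1.5-fold for 78, 79 and 80 members, and for 70.2%, 71.1% and 71.5% of all genes. These intervals are per gene and are not widened for the number of genes. Brighter probe sets have narrower intervals, with a median distance from estimate to bound of 0.22 for members and 0.27 for all genes, and the part of brightness in this contrast was not tested.

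**Figure D2:**
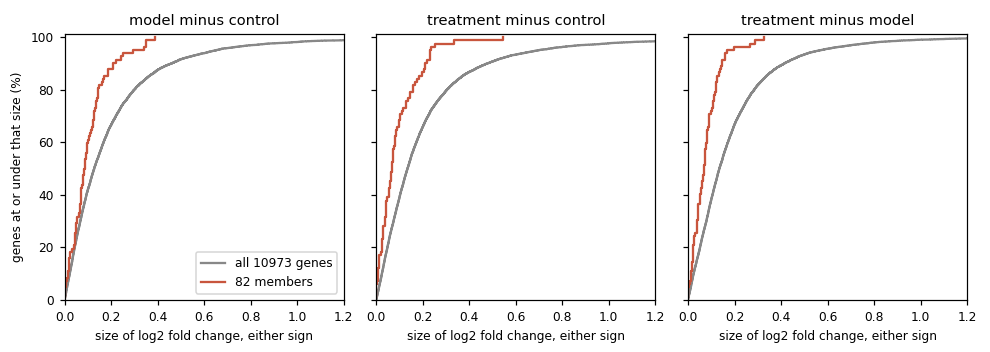
The horizontal axis is the size of the log2 fold change in either direction, and the vertical axis the percent of genes at or under that size, in each of the 3 comparisons. The red line is the 82 members and the grey line all 10973 genes tested. The red line is above the grey at 0.25, where it is at 92.7%, 96.3% and 96.3% and the grey line at 74.4%, 74% and 75.4%.

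Averaged over all members, arrays of 1 group differed from each other by more than the group means did, treatment excepted. The mean deviation from the 9-array mean was -0.087, -0.036 and 0.05 log2 units on control arrays 41, 42 and 43. It was -0.052, 0.033 and 0.061 on model arrays 21, 22 and 23, and 0.012, -0.001 and 0.02 on treatment arrays 31, 32 and 33. Control 41 was the lowest array and model 23 the highest, and the 3 treatment arrays lay between the extremes of both other groups. The means were -0.024 ± 0.069 (SD, n = 3) in control, 0.014 ± 0.059 in model and 0.010 ± 0.010 in treatment. Control 41 was also the array with the highest epithelial and the lowest smooth muscle marker values, given above.

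**Figure D3:**
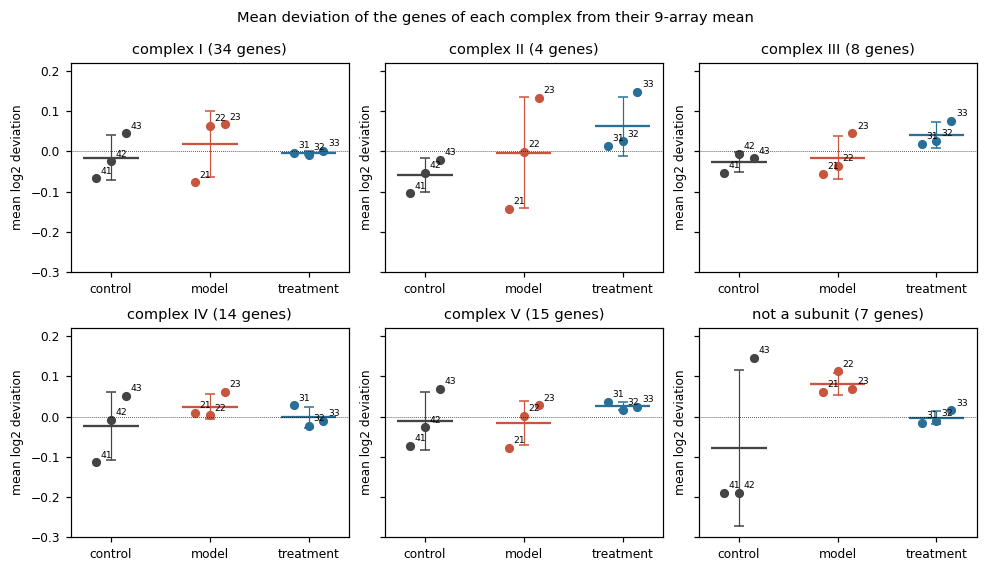
Each panel is a complex or the non-subunits, and the vertical axis is the mean deviation of its genes from their 9-array mean, in log2 units. Points are arrays with their number, horizontal lines the group means and bars ± 1 SD (n = 3). Groups overlap in every panel except that complex II and complex III have treatment arrays above the control arrays, and the non-subunits have model arrays above treatment arrays.

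Complex I, the NADH dehydrogenase, has core subunits that carry the flavin and the iron-sulphur clusters and many accessory subunits that stabilise it. Its 34 members had median log2 differences of 0.015 (model minus control), -0.004 (treatment minus control) and -0.038 (treatment minus model), with 19, 17 and 12 above 0. In treatment against control, 4 members of complex I were higher and 4 lower without overlap, where 9.4% and 13.9% of all genes were. The lower ones lay between -0.23 and -0.10. All 4 of the members named next were higher in both other groups than in control on average, and none was called.

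Ndufb8, an accessory subunit of the membrane arm, had the largest difference of all members. It read 5.72, 5.93 and 6.01 on control arrays 41, 42 and 43, 6.13, 6.19 and 6.51 on model arrays 21, 22 and 23, and 6.38, 6.32 and 6.60 on treatment arrays 31, 32 and 33. All 6 arrays of the hormone-treated groups were above all 3 controls. The log2 difference was 0.39 ± 0.13 (SE, adjusted p = 0.331 in limma) in model and 0.55 ± 0.13 (adjusted p = 0.122) in treatment. This was a dim probe set, with mean intensities of 43.4 ± 5.86 in control, 61.9 ± 11.4 in model and 70.6 ± 9.22 in treatment (SD, n = 3).

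Ndufa1, a small membrane arm subunit encoded on the X chromosome and needed for assembly of complex I, read 10.79, 10.90 and 10.96 in control. Model arrays read 11.12, 11.28 and 11.31, and treatment arrays 11.17, 11.03 and 11.15. Again the control arrays were the 3 lowest of 9. The difference was 0.35 ± 0.09 (adjusted p = 0.252 in limma) in model, a 1.28-fold ratio, and 0.23 ± 0.09 (adjusted p = 0.248) in treatment.

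Ndufv2, a core iron-sulphur subunit of the NADH-oxidising tip, read 9.0, 9.30 and 9.38 in control, 9.53, 9.58 and 9.59 in model and 9.55, 9.46 and 9.43 in treatment. Control 41 was well under all others, and the groups still did not overlap. The difference was 0.34 ± 0.11 (adjusted p = 0.313 in limma) in model and 0.25 ± 0.11 (adjusted p = 0.286) in treatment, and without control 41 these were 0.23 and 0.14. The other core subunits that were tested, taken by function, lay closer to 0: Ndufv1, which binds NADH and flavin, differed by -0.01 in model and -0.05 in treatment, and Ndufs1, Ndufs3, Ndufs7 and Ndufs8 lay between -0.05 and 0.13 in model and between -0.08 and 0.09 in treatment.

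Ndufb1, another membrane arm accessory subunit, was higher in treatment than in both other groups without overlap. It read 9.52, 9.67 and 9.71 in control, 9.70, 9.73 and 9.69 in model and 9.80, 9.81 and 9.87 in treatment. The differences were 0.20 ± 0.08 from control (adjusted p = 0.261 in limma) and 0.13 ± 0.08 from model (adjusted p = 0.465). Ndufb11 had the largest fall of complex I in treatment against model, -0.15 ± 0.09 (adjusted p = 0.443), with overlapping groups.

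Complex II, succinate dehydrogenase, is the enzyme that the citric acid cycle and the respiratory chain share, and all 4 subunits were tested. Their median log2 differences were 0.057, 0.136 and 0.063 in the same order. Sdhb, the iron-sulphur subunit, read 9.07, 9.08 and 9.05 in control, 9.02, 9.21 and 9.30 in model and 9.25, 9.17 and 9.43 in treatment. The 3 controls were nearly equal and all treatment arrays were above them, while model 21 was below. The difference in treatment against control was 0.22 ± 0.10 (adjusted p = 0.313 in limma, 95% interval -0.02 to 0.46).

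Sdhd, one of the membrane anchors, rested on control arrays of 9.49, 9.61 and 9.81 against 9.81, 9.81 and 9.92 in treatment and 9.66, 9.76 and 9.91 in model. Control 43 was level with 2 treatment arrays, and the difference in treatment was 0.21 ± 0.11 (adjusted p = 0.360 in limma). A second, dimmer Sdhd probe set had 0.06. Sdha, the flavoprotein with the succinate site, differed by -0.03 in model and -0.01 in treatment, and Sdhc, the other anchor, by 0.01 and 0.06. Their 95% intervals in treatment were -0.23 to 0.22 and -0.15 to 0.28.

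Complex III passes electrons from ubiquinol to cytochrome c. Its 8 members had medians of -0.034, 0.026 and 0.053 in that order, and 7 of 8 were above 0 in each comparison of treatment. Uqcrh, the hinge protein beside cytochrome c1, read 10.38, 10.44 and 10.58 in control, 10.80, 10.56 and 10.66 in model and 10.73, 10.67 and 10.69 in treatment. Treatment arrays were all above control, and model 22 fell just under control 43. The difference was 0.21 ± 0.09 (adjusted p = 0.403 in limma) in model and 0.23 ± 0.09 (adjusted p = 0.256) in treatment.

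Cyc1, cytochrome c1 itself, read 9.29, 9.32 and 9.37 in control and 9.50, 9.51 and 9.50 in treatment, with model at 9.26, 9.51 and 9.60. The 3 treatment arrays were close together and above control, and the difference was 0.18 ± 0.10 (adjusted p = 0.385 in limma). Uqcrc1, a core protein of the matrix side, differed by -0.07 in model and 0.03 in treatment. Uqcr11, a small accessory subunit, was lower in treatment than in model without overlap, by -0.09 ± 0.09 (adjusted p = 0.626).

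Of the 9 members with several probe sets, those of Uqcrc2, the other core protein, disagreed most in the 2 comparisons with model. The brighter one, used in the fit, read 9.39, 9.42 and 9.30 in control, 9.22, 9.14 and 9.38 in model and 9.40, 9.37 and 9.56 in treatment, and gave 0.20 ± 0.10 in treatment against model (adjusted p = 0.370 in limma). The dimmer one read 6.33, 6.34 and 6.13 in control, 5.31, 5.58 and 5.84 in model and 6.25, 6.07 and 6.52 in treatment, where every model array was below the other 6. Model minus control was -0.69 with it, and treatment minus model 0.70. The mean of both probe sets gave -0.41 and 0.45, and Uqcrc2 was not called with it.

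Complex IV, cytochrome c oxidase, has subunits with alternative forms that differ between tissues and with oxygen. Its 14 members had medians of 0.069, 0.000 and -0.009 in the 3 comparisons, with 9, 8 and 5 above 0. The forms found in most tissues were bright: mean intensities in control were 1370 ± 24.7 for Cox4i1, 951 ± 59.2 for Cox6a1, 1000 ± 23.5 for Cox6b1, 1130 ± 226 for Cox8a and 1160 ± 226 for Ndufa4. Their log2 differences in model against control were 0.14 (Cox4i1), 0.09 (Cox6a1), -0.08 (Cox6b1), 0.19 (Cox8a) and -0.01 (Ndufa4), with adjusted p from 0.529 to 0.967.

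The alternative forms gave signals near or under the array medians. These are Cox4i2, a form known from lung and low oxygen, Cox6a2, a muscle form, Cox6b2, known from testis, and Ndufa4l2, a form induced by hypoxia. Mean intensities in control were 24.8 ± 7.46 for Cox4i2, 23.9 ± 5.12 for Cox6a2, 23.3 ± 6.83 for Cox6b2 and 16.4 ± 1.77 for Ndufa4l2. Their log2 differences in model and treatment against control were 0.15 and -0.01 for Cox4i2 and 0.05 and 0.04 for Cox6a2, with overlapping groups. Detection calls were not used here, so whether these signals exceed background is unknown. Ndufa4l2 read 4.95, 5.0 and 5.10 in control, 5.15, 5.19 and 5.13 in model and 5.28, 5.13 and 5.07 in treatment, so model was above control without overlap, by 0.14 ± 0.07 (adjusted p = 0.427 in limma). That value was 0.26 with 1 and 0.06 with 64 added before the log.

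Cox6b2 read 5.71, 5.43 and 5.44 in model and 5.32, 5.12 and 5.27 in treatment, a difference of -0.29 ± 0.13 (adjusted p = 0.361 in limma) between groups that did not overlap. Control arrays, at 5.07, 5.22 and 5.55, spanned all of the treatment arrays, and model 21 lay above them. Because the signal is dim, this value depended on the amount added before the log, and ran from -0.45 with 1 added to -0.13 with 64 added.

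Cox8a, a small subunit of the membrane part, read 9.87, 10.10 and 10.44 in control, while model was at 10.33, 10.25 and 10.40 and treatment at 10.39, 10.29 and 10.36. Control 43 was the highest of all 9 arrays and control 41 the lowest. The differences of 0.19 ± 0.14 in model and 0.21 ± 0.14 in treatment (adjusted p = 0.552 and 0.449 in limma) became 0.34 and 0.36 without control 43 (adjusted p = 0.0672 and 0.0784). Without control 41 they fell to 0.055 and 0.077. Cox5a, a subunit of the matrix side, had the lowest value of complex IV in model against control, -0.21 ± 0.15 (adjusted p = 0.545), and Cox7b had -0.16 ± 0.11 (adjusted p = 0.515).

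Complex V makes ATP in its F1 head, driven through the Fo ring in the membrane. Its 15 members had medians of 0.002, 0.062 and 0.043 in the 3 comparisons, with 8, 9 and 10 above 0. The catalytic beta subunit Atp5f1b differed by 0.02 ± 0.09 in model and 0.17 ± 0.09 in treatment (adjusted p = 0.930 and 0.379 in limma). The alpha subunit Atp5f1a read 9.75, 9.85 and 9.76 in control, 9.60, 9.68 and 9.72 in model and 9.80, 9.77 and 9.77 in treatment, so model was the lowest group without overlap, by -0.12 ± 0.07 against control (adjusted p = 0.496).

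Atp5mf, the f subunit of Fo, was the member with the largest fall from control. It read 9.95, 9.84 and 9.72 in control, 9.47, 9.64 and 9.74 in model and 9.53, 9.64 and 9.65 in treatment. Treatment arrays were all below control, and model 23 overlapped control 43. The difference was -0.22 ± 0.10 (adjusted p = 0.413 in limma) in model and -0.23 ± 0.10 (adjusted p = 0.286) in treatment.

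Atp5me, the e subunit, which links ATP synthase dimers, went the other way in treatment. It read 8.29, 8.29 and 8.40 in control, 8.44, 8.36 and 8.39 in model and 8.62, 8.59 and 8.41 in treatment, with treatment 33 only just above control 43. The difference in treatment was 0.21 ± 0.09 (adjusted p = 0.267 in limma). Atp5mpl, a small subunit of Fo, was higher in treatment than in both other groups without overlap, by 0.14 ± 0.07 and 0.12 ± 0.07 (adjusted p = 0.368 and 0.461). Atp5pf, coupling factor F6 of the stalk, was lower in treatment than in model, by -0.13 ± 0.09 (adjusted p = 0.499), and Atp5mc3, a gene of the proton-carrying c ring, differed by -0.07 from control in both other groups.

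**Figure D4:**
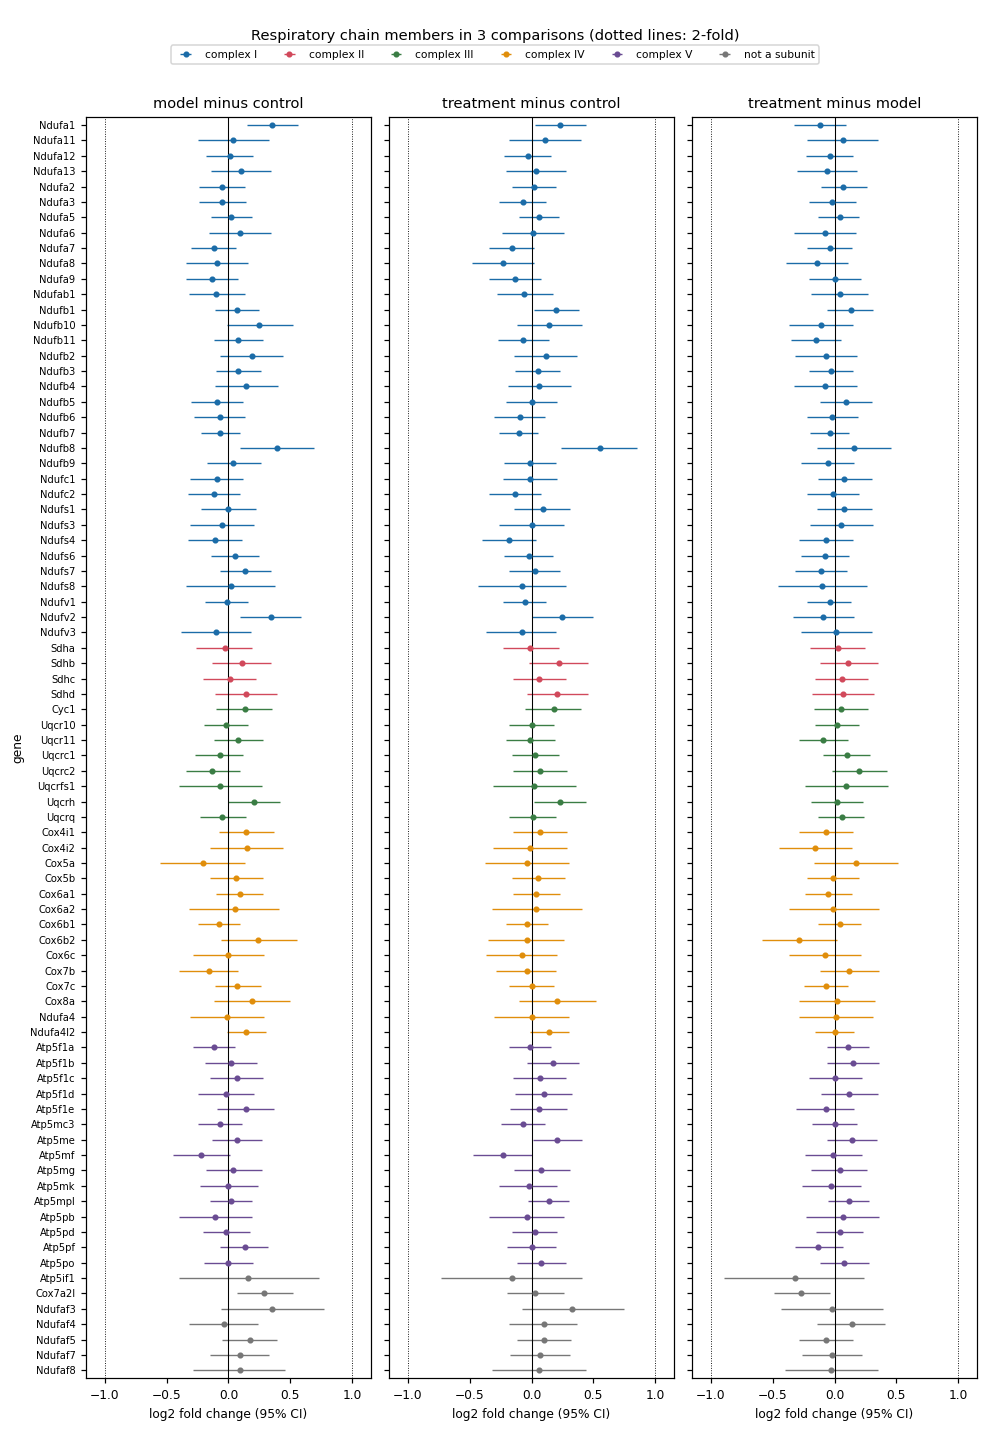
Rows are the 82 members by complex, and each panel is 1 comparison, with the log2 fold change on the horizontal axis. Points are estimates and bars their 95% intervals, all of which lie between the dotted lines at 2-fold. Ndufb8 is farthest to the right in the comparisons with control, at 0.39 and 0.55.

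Of the members that are not subunits, Cox7a2l had the smallest p of all members in treatment against model. Cox7a2l joins complexes III and IV into supercomplexes. It read 9.65, 9.65 and 9.75 in control, 9.90, 9.99 and 10.03 in model and 9.74, 9.53 and 9.85 in treatment, so the 3 model arrays were the highest of all 9, as they were for the adipocyte markers given above, whose part here was not tested. Model differed from control by 0.29 ± 0.10 (adjusted p = 0.331 in limma) and treatment from control by 0.03 ± 0.10 (adjusted p = 0.910), and treatment minus model was -0.27 ± 0.10 (adjusted p = 0.306). Ndufaf3, an assembly factor of complex I, read 6.26, 6.47 and 6.93 in control, 6.70, 6.90 and 7.12 in model and 6.78, 6.85 and 7.03 in treatment. Control 43 lay within the other groups, and the differences were 0.35 ± 0.18 and 0.33 ± 0.18 (adjusted p = 0.445 and 0.374). The other 4 assembly factors lay between -0.04 and 0.17 in model and between 0.06 and 0.10 in treatment.

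**Figure D5:**
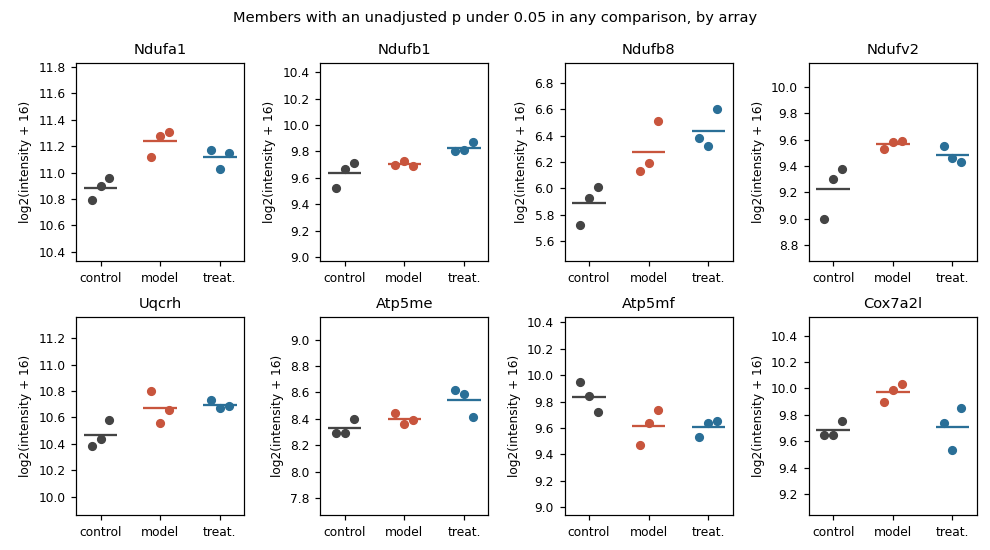
The 8 members with an unadjusted p under 0.05 in any comparison, with log2(intensity + 16) on the vertical axis, each panel spanning the same 1.5 units. Points are arrays in the order of their numbers and lines the group means. Control arrays are the lowest in Ndufa1, Ndufb8 and Ndufv2, and model arrays the highest in Cox7a2l.

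Leaving out control 43 changed which members were called. In model against control, 3 members were then higher at an adjusted p under 0.05 in limma and 0 lower, where 5.7% of all genes were called higher and 6.92% lower. They were Ndufa1 (0.39, adjusted p = 0.0403), Ndufv2 (0.42, adjusted p = 0.0427) and Ndufaf3 (0.54, adjusted p = 0.0465). In treatment against control, Ndufb8 was called higher (0.60, adjusted p = 0.0488) and 0 members lower, against 1.49% and 5.08% of all genes. The share of members called higher was thus below that of all genes in the first and near it in the second. The members' median difference became 0.082 in model and 0.063 in treatment, where that of all genes became 0.029 and -0.015. Controls 41 and 42, which remain, hold the 2 highest epithelial values given above, and their part in the calls was not tested.

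The genes that feed, build and regulate the chain were read from lists. Some of the genes with the smallest p in a comparison are named. Of 22 tested genes of pyruvate dehydrogenase and the citric acid cycle, 1 was called: Pdha1, the alpha subunit of pyruvate dehydrogenase, rose in treatment against control by 0.82 ± 0.11 (adjusted p = 0.0311 in limma). In that comparison 56 of all 10973 genes were called (0.51%). Pdha1 read 9.18, 9.46 and 9.44 in control, 9.93, 9.87 and 10.06 in model and 10.15, 10.09 and 10.29 in treatment, so the groups were ordered without overlap. Its difference in model was 0.60 ± 0.11 (adjusted p = 0.144). Without control 43 these values were 0.86 (adjusted p = 0.00763) and 0.64 (adjusted p = 0.0176).

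Other genes of this list were not called with all 9 arrays. Idh2, the mitochondrial NADP-dependent isocitrate dehydrogenase, read 9.14, 9.36 and 10.06 in control, 10.71, 10.42 and 10.48 in model and 10.45, 10.29 and 10.22 in treatment, a difference of 1.02 ± 0.22 in model (adjusted p = 0.174 in limma) that became 1.29 (adjusted p = 0.00291) without control 43. In treatment against control Idh2 had 0.80 (adjusted p = 0.138), and 1.07 (adjusted p = 0.00482) without control 43. Suclg2, a subunit of succinyl-CoA ligase, had 0.65 ± 0.13 in treatment against control (adjusted p = 0.0859), and Pdk2, a kinase that switches off pyruvate dehydrogenase, 0.46 ± 0.14 in model (adjusted p = 0.281). Pc, pyruvate carboxylase, which refills the cycle, was on the other side, with -0.54 ± 0.16 in model (adjusted p = 0.286) and -0.61 ± 0.16 in treatment (adjusted p = 0.132) against control. In treatment against model Suclg2 had 0.33 (adjusted p = 0.325 in limma). The median of the list was 0.049, 0.021 and 0.065 in the 3 comparisons.

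In the other 5 lists no gene was called in any comparison with all 9 arrays. Among 38 tested assembly factors, 5 of them also members, the medians were 0.019, 0.007 and -0.028, and the smallest adjusted p was 0.175 (Atpaf1, an assembly factor of the F1 head, 0.30 in treatment against control). Among 21 regulators of mitochondrial biogenesis they were 0.023, -0.008 and -0.036, with Nrip1, a corepressor, at -0.49 (adjusted p = 0.232) and Gabpb1, the partner of GABP alpha, at -0.20 (adjusted p = 0.333) in treatment against control. Among 16 carriers and channels, Slc25a5, an exchanger of ADP and ATP, had -0.35 (adjusted p = 0.266) and Vdac2, a channel of the outer membrane, -0.44 (adjusted p = 0.351) in model against control. In treatment against model the carrier Slc25a1 had 0.36 (adjusted p = 0.317 in limma). The assembly factors Cox19 and Timmdc1 had -0.35 and -0.27 there (adjusted p = 0.286 and 0.292), and Nubpl 0.21 (adjusted p = 0.325). Against control, the assembly factor Cox14 had -0.26 in model and -0.29 in treatment (adjusted p = 0.388 and 0.243 in limma). Coa3 had -0.40 in model (adjusted p = 0.407). Of the 38 assembly factors, 20 were above 0 in each comparison with control.

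Among 20 genes listed under other electron donors and ubiquinone synthesis, Prodh, proline dehydrogenase, had 0.40 in model and 0.42 in treatment (adjusted p = 0.305 and 0.170 in limma). Sqor, which passes electrons from sulphide, had 0.82 in treatment against control (adjusted p = 0.237). In treatment against model Sqor had 0.79 (adjusted p = 0.317 in limma) and Coq4 0.22 (adjusted p = 0.286). On the other side was Coq8a at -0.33 (adjusted p = 0.313). The list also held Aox1, aldehyde oxidase, which is neither such a donor nor an enzyme of ubiquinone synthesis, at -0.41 (adjusted p = 0.322). Of 50 mitochondrial ribosomal protein genes, 21 were above 0 in model and 19 in treatment against control, with medians of -0.035 and -0.053, and Mrps31 had -0.36 in treatment (adjusted p = 0.118).

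Without control 43, limma called genes of each of these 5 lists. Nrip1 was lower in model (-0.52, adjusted p = 0.0217) and in treatment (-0.71, adjusted p = 0.0104), and so was Vdac2 (-0.64, adjusted p = 0.0111, and -0.50, adjusted p = 0.0274). Slc25a13, a carrier of aspartate and glutamate, had the largest of these differences, -2.49 (adjusted p = 0.00155) and -2.17 (adjusted p = 0.0027). All 9 arrays gave -1.52 and -1.20 (adjusted p = 0.417 and 0.402). Slc25a13 read 8.51, 8.43 and 5.56 on control arrays 41, 42 and 43, 5.53 to 6.28 in model and 6.11 to 6.43 in treatment. The array left out was thus the control that read like the other groups. Gpd2, the mitochondrial glycerol-phosphate dehydrogenase, was lower (-1.02 in both, adjusted p = 0.00465 and 0.00469) and Prodh higher (0.50 and 0.52, adjusted p = 0.0374 and 0.0468).

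Among the mitochondrial ribosomal proteins, Mrpl17 was then lower in both groups (-0.54 in each, adjusted p = 0.0188 and 0.0243 in limma), Mrpl48 higher in model (0.45, adjusted p = 0.0211) and Mrps31 lower in treatment (-0.40, adjusted p = 0.0407). Of the assembly factors, Pet100, which acts on complex IV, was lower in treatment (-0.45, adjusted p = 0.0468), and Ndufaf3 was the call in model given above. The shares of all genes called without control 43, given above with the members' calls, apply here too.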

How the data were processed

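The authors deposited 1 normalized intensity per probe set and array on a linear scale. MAS5, Affymetrix's probe summary, is named in the submitters' processing notes, without settings, and scanner files were not used here. Deposited intensities ran from 1.87 to 7895.7 and were turned into log2(intensity + 16). The filter on dim signals asked for the 40th percentile of an array or more on 3 or more of the 9 arrays. Each gene was read from its brightest probe set with 1 symbol. Groups followed the titles. A single limma 3.58.1 model (R 4.3.3, lmFit, eBayes with trend, two-sided, residual df 6) held all 9 arrays and 3 contrasts, with Benjamini-Hochberg adjustment over 10973 genes. SE and 95% intervals come from that model. Its calls and estimates were tested on simulated data with known changes larger than those of any member, and its SE and intervals were not.

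The members and lists were chosen with earlier results of these data known. Members named were those called, the 3 with the smallest p per complex and comparison, complex II and the tissue forms; the core subunits of complex I, Ndufaf3, Atp5if1 and the members that did not pass the filter were added with their values seen, as were the list genes called only without control 43. Lists are described by counts and medians, without a set test. All 87 members matched a RefSeq gene by Entrez identifier. Alternatives tried were other amounts in the log (1 and 64), quantile normalization, median centring, no filter or a 60th percentile filter, no trend, averaged probe sets, only the 6 arrays compared, a replicate block and each array left out. Figures were drawn with matplotlib 3.10.9 (Python 3.11.15).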

Additional observations from a re-analysis of the deposited data

How the results depend on the processing

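No member was called under any of the 10 alternatives that kept all arrays of a comparison, and over the 9 fits without 1 array the count was 0 to 3 in model against control and 0 to 1 in treatment against control, with all calls made without control 43. Genes called in all numbered 3 in model against control and were 1 with the 6 compared arrays alone, 1 with no filter and 0 to 1384 without 1 array. They numbered 56 in treatment against control and were 27 with the replicate block and 0 to 720 without 1 array, and in treatment against model 0 to 3. The members' median in model against control ran from -0.009 to 0.082 without 1 array, and in treatment against control it was 0.079 with quantile normalization. Of the 99 differences of 33 named members, 70 kept their sign in every alternative computed, and 29 did not. There were 19 alternatives, and 18 for Cox4i2, Cox6a2, Cox6b2 and Ndufa4l2, which the 60th percentile filter left out. Whether the last digits of the array numbers pair the arrays cannot be told from so few arrays. Correlations of deviations ran from -0.408 to 0.311 between arrays with the same digit and from -0.39 to 0.451 between the others. With the replicate block, as without it, no member was called. Array number limits the precision, and dim probe sets such as Ndufb8, which had 0.33 with 64 added and 0.69 with 1 added in treatment against control, depend on the amount added.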
